A study of Mus musculus with 13 samples.

Results

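The accessible chromatin around 10 genes for transcription factors of joints, tendons and other connective tissue was described in forelimb and forebrain cells of mouse embryos. These were Osr1, Osr2, Erg, Scx, Mkx, Egr1, Tcf4, Pax1, Pax9 and Nkx3-2. The regions were all those called in the ATAC-seq libraries with their strongest summit within 100 kb of the body of 1 of these genes (GENCODE M21 on mm10). Over 13 libraries they numbered 2227 of 1360887 regions. After the 50000 strongest regions of each of 12 libraries were joined where they overlapped, 169 of 110779 joined regions lay near the 10 genes. Each is named here by its gene and its number in order along the chromosome. In GENCODE M21 the genes lie, with their strand, as follows: Osr1 at chr12:9570116-9581500 (+), Osr2 at chr15:35296098-35303305 (+), Erg at chr16:95359169-95586593 (-), Scx at chr15:76457452-76459458 (+), Mkx at chr18:6934518-7004780 (-), Egr1 at chr18:34859823-34864984 (+), Tcf4 at chr18:69343356-69689079 (+), Pax1 at chr2:147361925-147393295 (+), Pax9 at chr12:56691767-56712822 (+), Nkx3-2 at chr5:41761483-41764501 (-).

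ATAC-seq marks open chromatin by inserting adapters with the Tn5 transposase, and 50000 cells were used per library. The tissues were the forebrain (FB), the distal part of the forelimb (DFL) and its proximal part (PFL), taken at E12.5 from wild-type (wt) embryos and from embryos homozygous for allele 542, all of the strain B6CBAF1, with 2 replicates per group. Allele 542 (II1TDOM) carries, on chromosome 2 in the domain telomeric to the HoxD cluster (T-DOM), a second copy of the distal limb enhancer II1 joined to a LacZ reporter with the HBB promoter. The native copy of II1 is present in both genotypes, 542 is 1 breeding line, and each library came from cells pooled over several embryos. A further wt DFL library, an earlier sample that was processed anew, belongs to no group and is given separately. The libraries held 37.5 to 70.7 M (mega) tags and the earlier one 78.0 M, and in each tissue both 542 libraries were shallower than the deeper wt library. Many of the marker genes checked separated FB from limb, but not all in the direction of their tissue. More regions in all limb than in all FB libraries were found at 3 of 4 limb mesenchyme and 3 of 4 distal limb markers. The reverse held for 4 of 6 forebrain markers, but also for 2 of 3 proximal limb markers (Meis1 and Meis2). The distal limb markers Hoxd13 and Hoxd12, neighbours in the HoxD cluster, had equal numbers in every library and are not separate evidence. Over all protein-coding genes the shares were 7.22% with more in limb and 8.7% with more in FB. No distal or proximal limb marker gene separated DFL from PFL by its number of regions, and Hoxa13 had 11 to 15 in DFL and 12 to 14 in PFL.

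In the limb, connective tissue and joints form from mesenchyme that is patterned together with the cartilage. Scx, a basic helix-loop-helix factor, and Mkx, a homeobox factor, act in tendon cells, and Egr1, a zinc finger factor induced by many stimuli, acts upstream of tendon collagen genes. Osr1 and Osr2, the odd-skipped zinc finger factors, mark connective tissue fibroblasts and forming joints, Erg, an ETS factor, marks joint cartilage as well as endothelium, and Pax1, Pax9 and Nkx3-2 act in early cartilage precursors. The symbol Tcf4 here denotes the E-protein gene. The factor widely called TCF4 as a marker of muscle connective tissue is the product of another gene, Tcf7l2.

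The 200 bases around the strongest summit are given for 8 regions that carry the comparisons below, read from the plus strand of GRCm38. They were chosen from the regions restricted to a tissue or different between tissues. Capitals mark matches, on either strand, to CAATAAA (a motif of the HOX13 type), TGACAG (MEIS type), CAGATG (an E-box) or TAATTA (homeodomain type). Matches of different motifs could share bases and were counted separately.
Pax9 6 (DFL-only, chr12:56682890-56683089): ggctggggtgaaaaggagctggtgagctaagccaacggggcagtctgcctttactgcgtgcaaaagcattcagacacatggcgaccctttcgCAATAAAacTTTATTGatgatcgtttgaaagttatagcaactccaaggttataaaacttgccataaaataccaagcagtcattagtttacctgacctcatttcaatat
Osr1 1 (PFL-only, chr12:9470131-9470330): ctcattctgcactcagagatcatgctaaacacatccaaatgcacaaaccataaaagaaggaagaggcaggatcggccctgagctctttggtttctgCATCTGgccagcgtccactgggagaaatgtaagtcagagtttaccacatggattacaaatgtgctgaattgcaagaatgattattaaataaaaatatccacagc
Erg 5 (stronger in PFL, chr16:95399032-95399231): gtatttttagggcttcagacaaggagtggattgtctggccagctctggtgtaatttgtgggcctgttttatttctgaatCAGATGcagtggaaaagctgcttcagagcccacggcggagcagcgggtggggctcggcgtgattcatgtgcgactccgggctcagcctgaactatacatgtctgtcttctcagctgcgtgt
Erg 11 (limb-only, chr16:95469804-95470003): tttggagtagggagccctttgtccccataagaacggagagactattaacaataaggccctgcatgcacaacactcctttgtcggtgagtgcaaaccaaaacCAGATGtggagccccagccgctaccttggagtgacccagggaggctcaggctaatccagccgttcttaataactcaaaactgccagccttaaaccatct
Osr2 14 (limb-only, chr15:35359435-35359634): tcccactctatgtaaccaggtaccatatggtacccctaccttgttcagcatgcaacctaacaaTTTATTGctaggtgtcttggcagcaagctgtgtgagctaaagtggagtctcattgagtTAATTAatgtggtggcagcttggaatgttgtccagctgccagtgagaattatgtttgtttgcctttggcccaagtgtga
Nkx3-2 6 (limb-only, at the gene start, chr5:41764558-41764757): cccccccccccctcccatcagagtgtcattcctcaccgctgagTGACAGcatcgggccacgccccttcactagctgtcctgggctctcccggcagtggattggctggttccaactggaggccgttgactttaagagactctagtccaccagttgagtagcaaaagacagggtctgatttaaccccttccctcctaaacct
Erg 23 (FB-only, chr16:95668692-95668891): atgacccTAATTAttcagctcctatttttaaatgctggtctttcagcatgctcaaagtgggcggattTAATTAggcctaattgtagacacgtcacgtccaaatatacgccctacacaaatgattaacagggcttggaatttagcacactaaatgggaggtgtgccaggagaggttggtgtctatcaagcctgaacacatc
Pax1 12 (FB-only, chr2:147454969-147455168): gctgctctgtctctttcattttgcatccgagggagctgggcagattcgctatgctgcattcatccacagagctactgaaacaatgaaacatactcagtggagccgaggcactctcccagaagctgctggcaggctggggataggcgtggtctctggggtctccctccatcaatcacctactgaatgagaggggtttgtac

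Pax9 6 held 2 matches to CAATAAA that face each other across 2 bases, and Erg 23 held 2 matches to TAATTA. Pax1 12 held none of the 4. Among windows of the same length on all joined regions, CAATAAA was found in 4.66%, TGACAG in 15.8%, CAGATG in 20.99% and TAATTA in 9.96%. Near the 10 genes the shares were 2.96% (5 of 169), 12.4% (21), 20.7% (35) and 7.69% (13). Over the whole genome CAATAAA was found in 13.3% of DFL-only regions and in 4.02% of PFL-only regions, and near the 10 genes in 1 of 5 and 0 of 3. A match is only a description of the letters in the window.

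The 169 regions were 80 in introns, 69 between genes and 20 in exons. Tcf4, the longest of the 10 genes, had 38, followed by Erg with 24, Pax9 with 20, Scx with 16, Osr2 with 15, Pax1 with 13, Egr1 with 12, Osr1 with 11 and Mkx and Nkx3-2 with 10 each. For 116 of them the named gene was also the nearest coding start, but for Scx this held for 3 of 16 regions, with 11 other coding genes in its window, and for Egr1 for 4 of 12. At Pax9 this held for 8 of 20 regions and at Nkx3-2 for 5 of 10. The regions near Scx, Egr1, Pax9 and Nkx3-2 can therefore belong to other genes. Among the 169 regions, 32 (18.9%) were in the lists of all 12 libraries, against 17.4% of all joined regions. Of these 32, 22 lay within 1000 bp of an annotated transcript start, a share of 68.8% against 65.5% over the genome. Of the 33 regions restricted to a tissue (defined below), 3 did, or 9.09% against 6.16%.

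**Figure D1:**
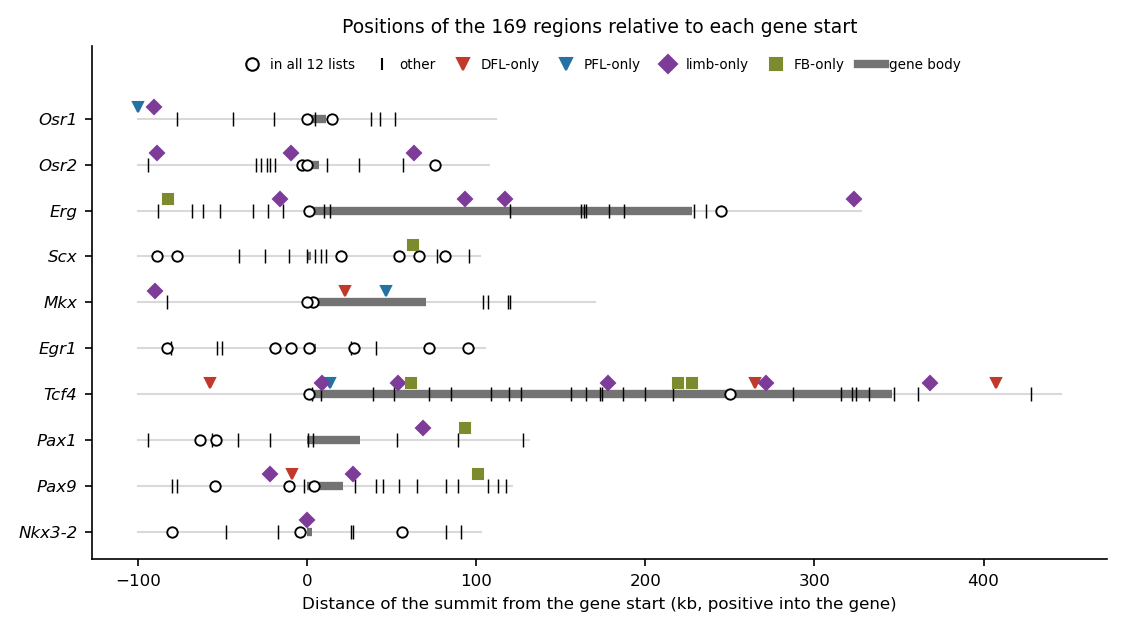
Each of the 169 regions is placed by the distance of its summit from the start of its gene (x axis, kb) in 1 row per gene, with the gene body as a thick line. Open circles are the 32 regions in all 12 lists, and coloured symbols above the line are the 5 DFL-only, 3 PFL-only, 18 limb-only and 7 FB-only regions, 12 of which lie near Tcf4.

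The start regions were mostly shared, a count that was not made over all coding genes. At Osr1, Osr2, Erg, Mkx, Egr1, Tcf4 and Pax9 the strongest region at a transcript start was in all 12 lists, at Scx in 10, at Pax1 in 9 and at Nkx3-2 in 8. The fold, the tags at the summit over the local background of the same library is used for strength. At the start of Mkx (Mkx 8) it was 4.02 to 5.57 in limb and 4.49 to 5.13 in FB, and at the start of Osr2 (Osr2 10) 6.86 to 8.82 and 5.73 to 7.97. Limb and FB overlapped at both, and neither difference passed the threshold of the test described below (adjusted p = 0.703 at Mkx 8 and 0.0674 at Osr2 10), although Osr2 10 passed under 6 alternatives (adjusted p 0.0296 to 0.0496), among them median centring and the fit without wt DFL replicate 1, 542 DFL replicate 1 or 542 PFL replicate 1. The start region of Scx (Scx 6) had an adjusted p of 0.0979, and of 0.0191 with median centring.

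The strongest regions were as widely shared. The strongest called in at least 6 libraries was in all 12 lists for Osr1 (Osr1 8), Osr2 (Osr2 15), Scx (Scx 2), Egr1 (Egr1 11), Tcf4 (Tcf4 2), Pax1 (Pax1 4), Pax9 (Pax9 3) and Nkx3-2 (Nkx3-2 10). Scx 2, in an intron 77.0 kb upstream, had the highest mean fold of all 169, from 17.6 to 21.9 in limb and from 20.5 to 23.2 in FB. Scx 2 and also Osr2 15, Egr1 11 and Nkx3-2 10 lie within 82 bp of the coding start of a neighbour, Mroh1, Vps13b, Etf1 and Bod1l, respectively, and the coding start nearest to Pax9 3 is that of Nkx2-9. Only at Erg (Erg 11) and Mkx (Mkx 10) was the strongest region limb-only.

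Limb and forebrain were compared first, to ask which of these genes lie in chromatin opened in limb cells. Among the 50000 strongest regions of each library, 6 of the 10 genes, Osr1, Osr2, Erg, Mkx, Tcf4 and Pax9, had more regions in every limb library than in any FB library. Over all protein-coding genes 7.22% did. None had more in FB, where the share of all genes was 8.7%. Erg had 10 to 15 regions in limb and 4 to 6 in FB. Tcf4 had 17 to 25 against 10 to 14, Osr1 6 to 8 against 2 to 3, Osr2 8 to 11 against 5 to 6, Mkx 6 to 9 against 3 in each FB library and Pax9 8 to 12 against 5 in each. These ranges leave no overlap. For Scx (10 to 13 in limb, 11 to 13 in FB) and Egr1 (8 to 11 and 9 to 13), the 2 tendon genes in gene-dense windows, the ranges overlapped. Pax1 (5 to 8 and 4 to 5) and Nkx3-2 (4 to 9 and 3 to 4) met at a shared value. With the 20000 strongest regions per library, 0 of the 10 genes had more in limb, against 5.62% of all coding genes. With all deposited regions 5 did, without Osr2, against 6.93%.

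**Figure D2:**
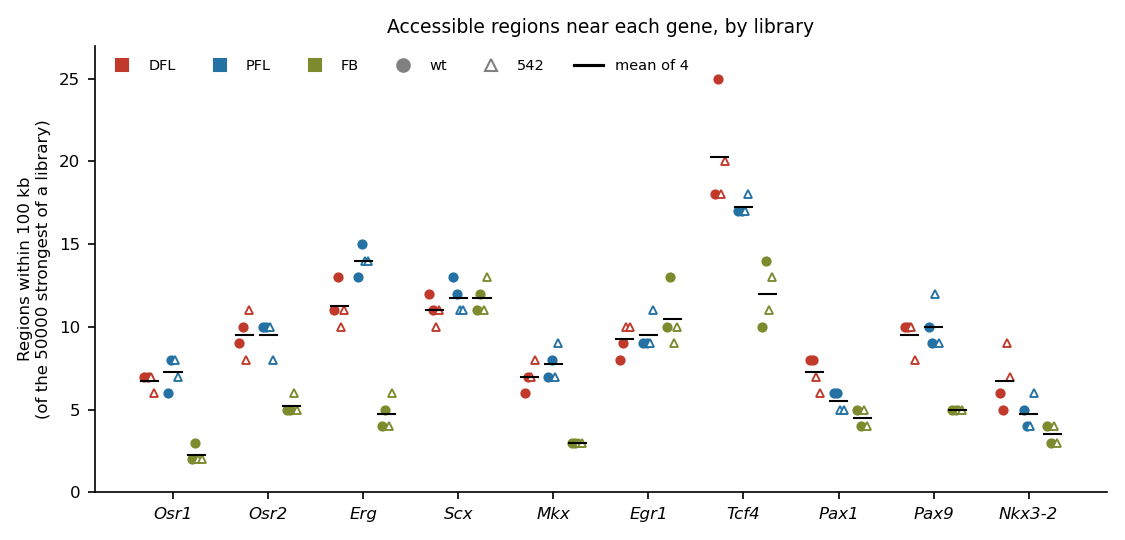
The number of regions within 100 kb of each gene among the 50000 strongest of a library (y axis) is drawn for each of the 12 libraries, with filled circles for wt, open triangles for 542 and a bar at the mean of the 4 libraries of a tissue. FB lies below all limb libraries at Osr1, Osr2, Erg, Mkx, Tcf4 and Pax9.

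In bulk cells a larger share of cells with an open region and more opening per cell cannot be told apart, here and in all comparisons below. Limb-only regions, those in the lists of all 8 limb and no FB library, numbered 18 of 169 (10.7%), against 4.82% of all joined regions. They lay near Tcf4 (5), Erg (4), Osr2 (3), Pax9 (2) and, with 1 each, Osr1, Mkx, Pax1 and Nkx3-2. FB-only regions numbered 7 (4.14%), against 8.77%, with 3 near Tcf4 and 1 each near Erg, Scx, Pax1 and Pax9. With the 20000 strongest regions the numbers were 3 (4.41%) and 1 (1.47%) of 68, against 3.71% and 7.40% of all regions.

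The limb-only regions lay in introns (9), between genes (8) or in an exon (1), and 2 of the 18 were within 1000 bp of a transcript start. Tcf4 28 (chr18:69613237-69614820), in an intron of Tcf4 271 kb from its start was limb-only. Its fold was 11.2 and 11.2 in wt DFL, 10.8 and 9.61 in 542 DFL, 11.04 and 9.92 in wt PFL and 10.1 and 10.4 in 542 PFL. In FB it was 3.95 and 3.63 in wt and 3.82 and 3.10 in 542. All limb libraries thus lay above all FB libraries, with a log2 difference of 1.55 ± 0.11 (SE, limma, adjusted p = 2.45e-07). Tcf4 28 was chosen by these same values, which are therefore no separate support.

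At Erg, the intronic Erg 11 (shown above) had a fold of 6.97 to 10.6 in the 8 limb libraries, with a median of 8.00, and was called in no FB library. Erg 12, 93.0 kb into the gene, ranged from 5.35 to 10.9 and was likewise not called in FB. At Osr2, the intergenic Osr2 14 ranged from 5.19 to 11.02 in limb with a median of 9.57, and was called at 3.39 and 2.84 in wt FB and not in 542 FB. Osr2 2, 88.6 kb upstream in an intron of Gm33497, ranged from 6.59 to 10.9 in limb and was called in 1 FB library, at 2.45. Mkx 10, which lies in an intron of Armc4 at 90.1 kb upstream of Mkx, ranged from 7.49 to 12.6 in limb and was called in FB in 1 library, at 3.80. Osr1 2 (6.29 to 11.2), Pax9 4 (5.64 to 9.13) and Tcf4 36 (5.17 to 11.9) were called in every limb library and in no FB library.

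The FB-only region with the highest fold was at Tcf4, which is also active in neurons. Tcf4 24, at an annotated inner transcript start 220 kb from the first, had a fold of 12.52 and 13 in wt FB and 11.5 and 12.2 in 542 FB and was called in no limb library of the 6 groups. Tcf4 20, at another inner start 178 kb from the first, was limb-only instead, from 5.10 to 9.19 in limb and not called in FB. The outermost start (Tcf4 2) was in all lists, from 11.9 to 15.1 in limb and from 13.1 to 16.1 in FB. Starts of this 1 gene thus differed in which tissues called them. Tcf4 10 ranged from 6.66 to 9.22 in FB and was not called in limb, and Tcf4 25 ranged from 7.38 to 13.4 in FB and was called in 3 limb libraries, at 2.55 to 4.39.

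Near Erg, the intergenic Erg 23 had a fold of 9.81 and 10.7 in wt FB and 10.3 and 13.9 in 542 FB, and was called in both wt DFL libraries alone among limb, at 2.34 and 2.80. Its nearest coding start is that of Ets2, not of Erg. Pax1 12 had a fold of 8.76 and 9.65 in wt FB and 5.83 and 5.54 in 542 FB, and 3.54 and 3.02 in wt PFL. Pax9 17, in an intron of Slc25a21, ranged from 6.15 to 8.17 in FB and was not called in limb.

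**Figure D3:**
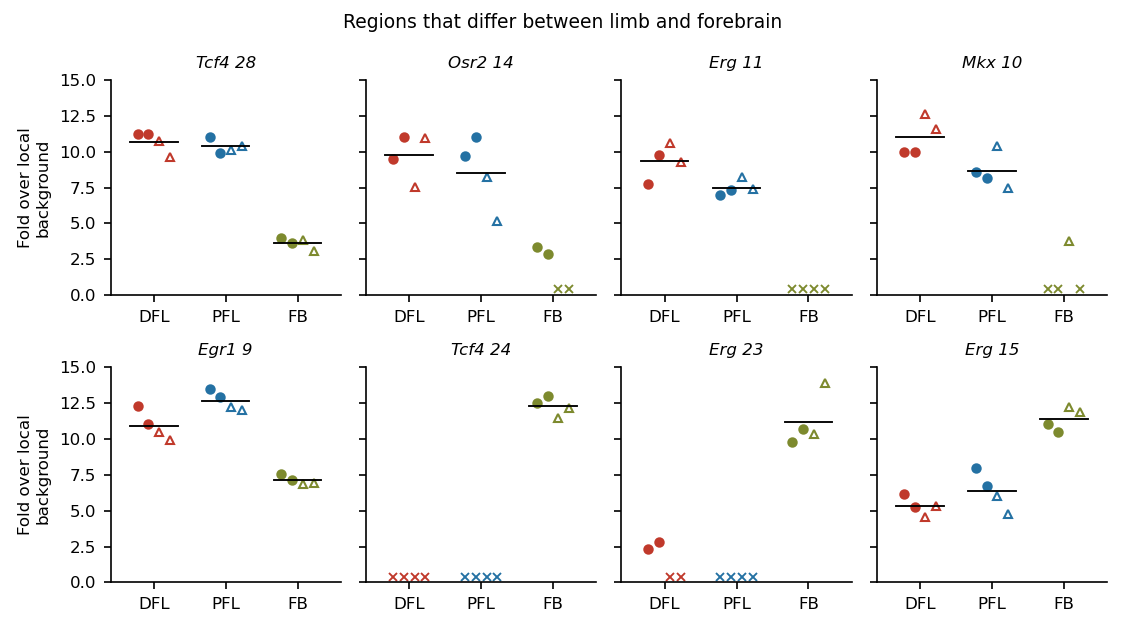
Fold over local background (y axis) of 8 regions in each library of DFL, PFL and FB, with filled circles for wt, open triangles for 542, crosses near 0 for libraries in which the region was not called, and a bar at the mean where all 4 libraries called it. The first 5 panels are higher in limb, as at Tcf4 28 (9.61 to 11.2 against 3.10 to 3.95), and the last 3 in FB.

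The strength of regions could be tested only where every library called them, which leaves out most of the restricted regions. In limma on the log2 fold of 49 such regions, 8 were higher in limb and 10 in FB at an adjusted p below 0.05, against 18.5% and 18.9% of all regions tested. The median log2 difference was -0.02, against -0.01 over all regions. Without normalization the median of all regions moved to -0.14 and the split to 8 and 19, beside 3710 and 11098 of all 28265. With median centring the split was 11 and 10, beside 6684 and 4543. None of the called regions named next changed sign under these settings.

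The regions given next were chosen by the test on the same values. Besides Tcf4 28, the largest difference in favour of limb was at Egr1 9, an intergenic region 27.7 kb from the start of Egr1. Its fold was 9.93 to 12.3 in DFL, 12.0 to 13.5 in PFL and 6.87 to 7.57 in FB (log2 difference 0.86 ± 0.08, adjusted p = 1.68e-06). Osr1 10, 43.0 kb from the start of Osr1, was at 3.76 to 7.18 in limb and 2.22 to 3.97 in FB (0.69 ± 0.15, adjusted p = 0.00321). Limb and FB overlapped there at 542 PFL replicate 1 and wt FB replicate 2. The start region of Pax1 (Pax1 7) was at 4.61 to 7.67 in limb and 6.37, 3.90, 3.24 and 3.86 in FB (0.58 ± 0.14, adjusted p = 0.00456), with an overlap through wt FB replicate 1. Without wt FB replicate 2 the adjusted p at Pax1 7 was 0.0527. At the start of Nkx3-2 (Nkx3-2 6) the difference was smaller, 3.27 to 4.31 in limb and 2.69 to 3.01 in FB (0.31 ± 0.10, adjusted p = 0.0299). There the adjusted p was 0.0507 without wt PFL replicate 1 and 0.104 to 0.155 without any 1 of the FB libraries, wt or 542. Scx 13, whose nearest coding start is Scrt1, a neighbour of Scx, differed by 0.32 ± 0.10 (adjusted p = 0.022), and by an adjusted p of 0.0544 to 0.092 without any 1 of the FB libraries and 0.163 without normalization.

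Regions stronger in FB included the start of Erg. Erg 15 had a fold of 4.55 to 7.99 in limb and of 11.01, 10.5, 12.3 and 11.8 in FB (log2 difference -0.84 ± 0.11, adjusted p = 6.57e-05), so that the start of Erg had the higher fold in FB while its introns held limb-only regions. Mkx 7, 3.20 kb into Mkx, was at 4.30 to 7.51 in limb and 9.72 to 10.4 in FB (-0.64 ± 0.12, adjusted p = 0.000636). Osr1 8, the strongest region of Osr1, was at 9.30 to 13.4 in limb and 15.1 to 17.3 in FB (-0.43 ± 0.08, adjusted p = 0.000641). Nkx3-2 7, 4.08 kb upstream of Nkx3-2, was at 6.03 to 8.16 in limb and 9.93 to 10.95 in FB (-0.44 ± 0.11, adjusted p = 0.00736). None of these 4 overlapped between limb and FB, but they were chosen by the test on the same values. Egr1 5, in an exon of the neighbour Reep2, differed by -0.34 ± 0.08 (adjusted p = 0.00632).

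Markers of other cell types were counted for this comparison as well. The 4 endothelial marker genes, of interest since Erg is active in endothelium, together had 24 to 29 regions in DFL, 24 to 28 in PFL and 22 to 26 in FB, and 1 of 4 (Kdr) separated limb from FB. The endothelial sums of limb and FB thus overlapped. The 3 blood marker genes had 35 to 38, 37 to 40 and 42 to 46 regions, and 1 of 3 (Gata1) had more in all FB libraries. Over all protein-coding genes 7.22% had more in limb and 8.7% more in FB. Their part in the regions near Erg was not tested.

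Distal and proximal forelimb were compared next, since joints and tendons form along both. None of the 10 genes separated DFL from PFL by its number of regions in either direction, against 2.99% of all genes with more in DFL and 3.26% with more in PFL. Erg (10 to 13 regions in DFL, 13 to 15 in PFL), Tcf4 (18 to 25 and 17 to 18) and Pax1 (6 to 8 and 5 to 6) each met at a shared value. Erg had more in PFL without wt DFL replicate 2 or wt PFL replicate 1, Tcf4 had more in DFL without 542 PFL replicate 2, and Pax1 without 542 DFL replicate 2. DFL-only regions numbered 5 of 149 (3.36%), against 3.27% of all, and PFL-only regions 3 (2.01%), against 2.6%. Both shares were near those of the genome.

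Of the DFL-only regions 3 lay near Tcf4 and 1 each near Mkx and Pax9. Tcf4 37, 408 kb from the start and beyond the gene, had a fold of 6.89 and 7.70 in wt DFL and 5.90 and 5.92 in 542 DFL, and was called in neither PFL nor FB. Tcf4 1, 57.5 kb upstream, was at 5.71 and 6.13 in wt DFL and 8.48 and 5.48 in 542 DFL and was called in 1 PFL library, at 2.77. Tcf4 27 was DFL-only within the limb, at 4.60 to 6.16, but was also in all FB lists, at 6.05 to 8.65. Pax9 6, 8.78 kb upstream of Pax9, was at 5.98 and 6.54 in wt DFL and 6.76 and 6.78 in 542 DFL. In PFL it was called only in 542, at 3.76 and 2.92. Pax9, with its paralogue Pax1, is known from limb mesenchyme as well as from the vertebral column.

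Mkx held a region of each kind within its introns. Mkx 6, 22.5 kb into the gene, was DFL-only, with 6.91 and 6.04 in wt DFL, 6.21 and 4.57 in 542 DFL and 3.56 to 4.07 in PFL (log2 difference DFL minus PFL 0.62 ± 0.17, adjusted p = 0.0251). Mkx 5, 46.4 kb into the gene, was PFL-only, with 6.60 and 6.06 in wt PFL, 9.58 and 7.44 in 542 PFL and 2.80 to 3.96 in DFL (-1.17 ± 0.18, adjusted p = 0.000837). Both regions were chosen by these values. The groups did not overlap at either, and neither was called in FB. The call at Mkx 6 was lost without wt DFL replicate 1, 542 DFL replicate 1 or any 1 of the PFL libraries (adjusted p 0.0518 to 0.08), while Mkx 5 kept it under all 16 alternatives.

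The other PFL-only regions were Osr1 1 and Tcf4 6. Osr1 1, 99.9 kb upstream and thus near the border of the window, was at 8.66 and 8.70 in wt PFL and 6.12 and 6.13 in 542 PFL, and at 3.66, 4.202 and 3.87 in 3 of 4 DFL libraries. Tcf4 6 was at 5.93 and 7.58 in wt PFL and 5.11 and 5.14 in 542 PFL, and at 3.07 to 3.98 in 3 DFL libraries. Without 542 PFL replicate 1 or without 542 PFL replicate 2, 5 regions were PFL-only (3.42% and 3.38%), against 3.33% and 3.59% of all regions.

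**Figure D4:**
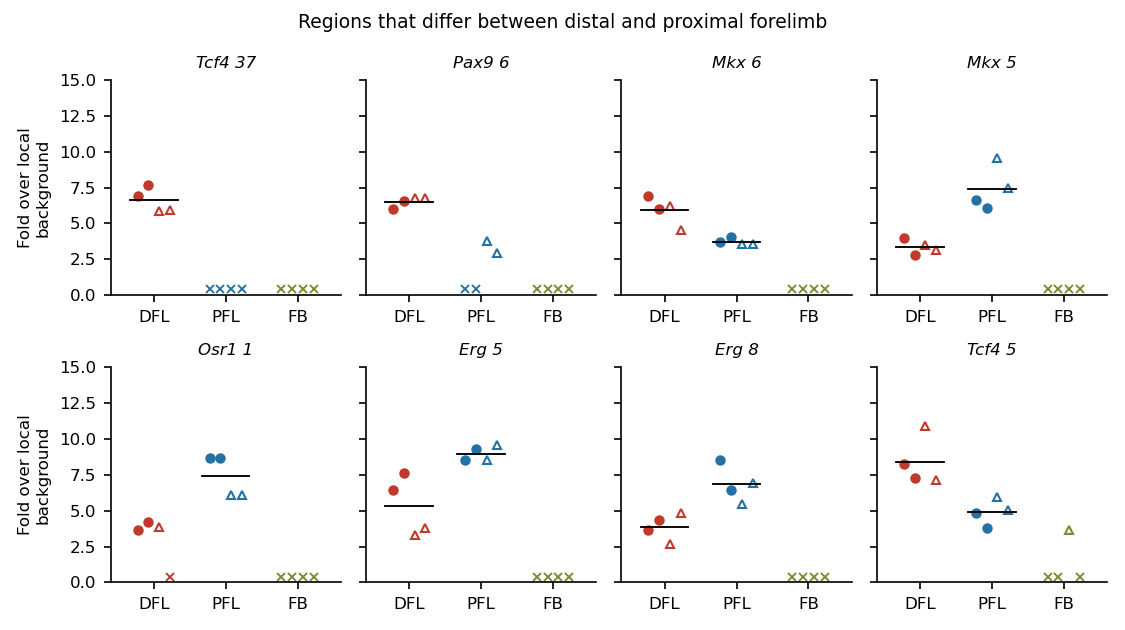
Fold over local background (y axis) of 8 regions in each library of DFL, PFL and FB, with filled circles for wt, open triangles for 542, crosses near 0 for libraries in which the region was not called, and a bar at the mean where all 4 libraries called it. Tcf4 37 is called in DFL alone (5.90 to 7.70), and Mkx 5 is at 6.06 to 9.58 in PFL and 2.80 to 3.96 in DFL.

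Among 88 regions called in all 8 limb libraries, 4 were stronger in DFL and 8 in PFL, against 6.84% and 5.89%, respectively, of all regions tested, with a median log2 difference of -0.01, as over all regions. Without normalization the split was 5 and 4, beside 3525 and 1895 of all 42933. Mkx had 5 of the 12, with 4 of its 9 tested regions stronger in PFL. Besides Mkx 5 these were Mkx 1 (-0.67 ± 0.19, adjusted p = 0.0341), Mkx 4 (-0.70 ± 0.22, adjusted p = 0.0450) and Mkx 9 (-0.52 ± 0.16, adjusted p = 0.0424). Mkx 1 was at 3.41 to 3.73 in DFL and 3.96 to 6.96 in PFL, and its call was lost without any 1 library other than 542 DFL replicate 1 and 542 PFL replicate 1 (adjusted p 0.0656 to 0.0991). Mkx 4 and Mkx 9 lie outside the rule for named regions and are given to complete the count. The calls at both were lost without wt DFL replicate 2, wt PFL replicate 1 or wt PFL replicate 2. In these fits Mkx 5 was the only region of Mkx still called stronger in PFL.

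At Erg, 2 intronic regions were stronger in PFL. Erg 8, 164 kb into the gene, was at 5.47 to 8.53 in PFL and 2.69 to 4.86 in DFL (-0.89 ± 0.21, adjusted p = 0.0103). Erg 5 (shown above) was at 8.52, 9.31, 8.51 and 9.59 in PFL. In wt DFL it was at 6.45 and 7.63 but in 542 DFL at 3.32 and 3.78 (-0.90 ± 0.19, adjusted p = 0.00624). The earlier wt DFL library, which is in none of the fits, was at 14.6 there, above all PFL libraries. Erg 12, limb-only, was instead stronger in DFL, at 8.97 to 10.9 against 5.35 to 8.20 (0.57 ± 0.15, adjusted p = 0.0229). Erg thus held regions that differed in both directions, all chosen by the test on the same values. The call at Erg 12 was lost without wt DFL replicate 1, 542 DFL replicate 2, wt PFL replicate 2 or 542 PFL replicate 1 (adjusted p 0.0553 to 0.083), and those at Erg 5 and Erg 8 were not lost under any of 16 alternatives.

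Tcf4 5, an intronic limb-only region 8.75 kb into Tcf4, was at 8.26 and 7.31 in wt DFL, 10.9 and 7.16 in 542 DFL and 3.81 to 5.92 in PFL (0.71 ± 0.17, adjusted p = 0.0127). Osr1 10 was at 5.48 to 7.18 in DFL and 3.76 to 4.82 in PFL (0.53 ± 0.16, adjusted p = 0.0433), a call that was lost without any 1 of the 8 libraries (adjusted p 0.0606 to 0.124). Pax1 10 was at 6.13 to 8.89 in DFL and 9.32 to 10.6 in PFL (-0.49 ± 0.14, adjusted p = 0.0266), and Pax9 4 at 5.64 to 7.63 and 7.95 to 9.13 (-0.47 ± 0.14, adjusted p = 0.0376). The tissues did not overlap at any of these 4, which are given because they passed the test on the same values. The call at Pax1 10 was lost without wt DFL replicate 2, 542 DFL replicate 2 or any 1 of the PFL libraries (adjusted p 0.0511 to 0.0838) and without normalization (adjusted p = 0.0556). At Pax9 4 it was lost without wt DFL replicate 2, wt PFL replicate 1 or wt PFL replicate 2. No region of Osr2, Scx, Egr1 or Nkx3-2 passed the threshold between DFL and PFL, of 8, 11, 9 and 4 tested. Egr1 9 was close to it (-0.27 ± 0.08, adjusted p = 0.0517). It passed with median centring (-0.28, adjusted p = 0.0427) and with a mean fold of at least 5 (-0.27, adjusted p = 0.0482).

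Muscle markers moved with this comparison, but had about as many regions in FB as in PFL. The 4 muscle marker genes together had 13 to 17 regions in DFL and 21 to 26 in PFL. Of these, Myod1 (2 to 4 and 5 to 7) and Pax3 (3 to 5 and 6 to 10) had more in PFL, against 3.26% of all coding genes. In FB the 4 muscle markers had 22 to 26, with 7 to 9 each at Myod1 and Pax7. No library lacked regions near 3 of them, while Pax7 had 0 to 2 in DFL. The 6 forebrain marker genes moved the other way, with 36 to 40 regions in DFL and 25 to 30 in PFL. Their part in the PFL and DFL regions near the 10 genes was not tested.

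**Figure D5:**
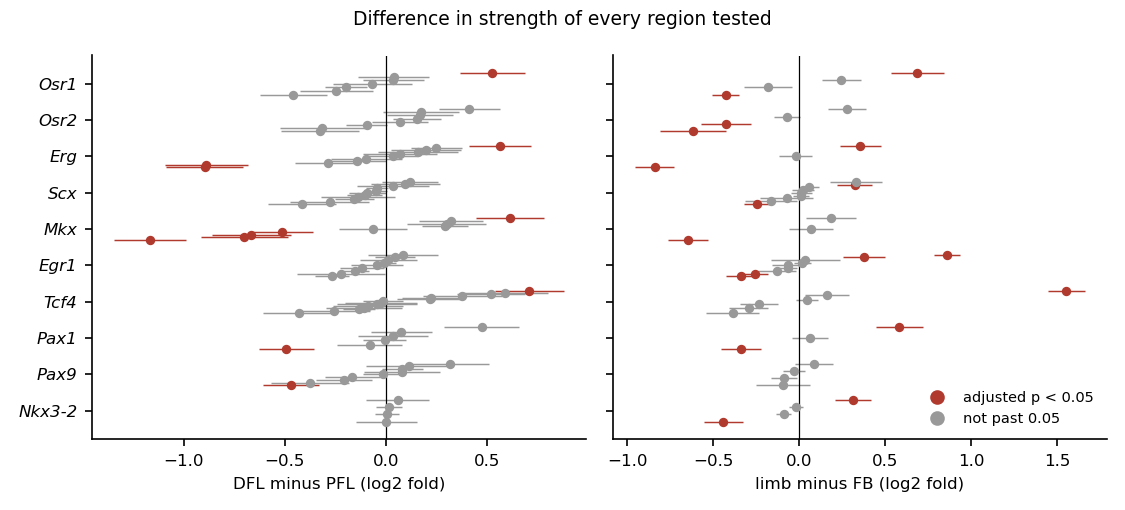
Difference of log2 fold, DFL minus PFL (left, 88 regions) and limb minus FB (right, 49 regions), for every region tested, in 1 band per gene. Points are estimates, bars are ± 1 SE, and red marks an adjusted p below 0.05. The extremes are Mkx 5 (-1.17) on the left and Tcf4 28 (1.55) on the right.

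Allele 542 was compared with wt over all tissues, to ask whether the inserted transgene goes with other changes near these genes. No region near the 10 genes was in the lists of all 6 libraries of 1 genotype and of none of the other. Over all regions these shares were 0.0126% for wt-only and 0.0153% for 542-only. With the tissues pooled, no gene separated the genotypes by its number of regions, against 0.0538% of all genes with more in wt and 0.113% with more in 542. Genes whose numbers differ between limb and FB overlap there unless the genotype difference exceeds that between tissues. Erg, for example, had 4 to 15 regions in wt and 4 to 14 in 542. Numbers of regions per gene were not compared between genotypes within a tissue. In limma on the 49 regions called in all libraries, 0 passed an adjusted p of 0.05 in either direction, against 0.12% of all regions in each direction, and 9 of the 49 had an unadjusted p below 0.05, as had 3590 of all 28265 regions tested. For the difference of the genotype effect between tissues, 0 of the 49 and 0% of all regions passed, and 5 of the 49 had an unadjusted p below 0.05, as had 2453 of the 28265.

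With the limb libraries alone, a fit added after the data were seen, 88 regions could be tested. None was higher in 542 (0.179% of all regions) and 1 was higher in wt (0.27%). This was Pax1 2, in an intron of Nkx2-2os 63.3 kb upstream of Pax1, singled out after its values were seen. Its fold was 9.74 and 13.6 in wt DFL, 11.2 and 8.44 in wt PFL, 5.90 and 5.66 in 542 DFL and 5.35 and 6.18 in 542 PFL (log2 difference 542 minus wt -0.81 ± 0.15, adjusted p = 0.035). The genotypes did not overlap in limb. In FB they lay closer, at 11.6 and 11.8 in wt and 10.8 and 10.3 in 542, and over all tissues the difference was -0.58 ± 0.14 (adjusted p = 0.107). The difference between tissues did not pass the threshold (adjusted p = 0.494). Pax1 lies on chromosome 2, as the insertion does, and 542 libraries were aligned to the mutant genome. Called regions were 0.521% of those tested on chromosome 2 and 0.443% elsewhere, and the part of the 2 genomes in the value at Pax1 2 was not tested.

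Within a tissue, the regions in both libraries of 1 genotype and none of the other were few. In DFL they numbered 5 for wt and 2 for 542 of 123, against 4.21% and 3.42% of all regions. In PFL they were 6 and 5 of 120, against 4.38% and 3.49%, and in FB 1 and 2 of 76, against 2.94% and 2.79%. Erg 5 was the strongest of the 5 in wt DFL, and the other 4 were Osr2 7, Scx 5, Tcf4 30 and Pax9 10. Tcf4 30 was at 4.98 and 5.61 in wt DFL and 2.95 and 3.02 in 542 DFL. At Erg 5 the genotype difference differed between DFL and PFL by -0.93 ± 0.30 on the log2 scale, which did not pass the threshold (adjusted p = 0.556), and 0 of 88 regions did, as 0% of all regions.

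The earlier wt DFL library, used in none of these comparisons, had 109 regions near the 10 genes among its 50000 strongest, against 95 to 105 in the other DFL libraries. It held 17 of the 18 limb-only and none of the 7 FB-only regions in this list, where over the genome it held 94.4% and 1.75%. It held 3 of the 5 DFL-only regions, where the genome-wide share was 79.4%, and called the other 2 at a lower rank. Tcf4 37 was at 10.3 there, Mkx 6 at 7.22 and Pax9 6 at 6.42. At Erg 5 its fold was 14.6, above all limb libraries of the groups.

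Other genes of these pathways, a list of 43, were counted in the same way. Of these, 11 had more regions in all limb than in all FB libraries and 3 the reverse, beside 7.22% and 8.7% of all coding genes. In DFL 6 had more than in PFL and 3 the reverse, beside 2.99% and 3.26%, and none separated the genotypes with the tissues pooled. The genes with the largest differences in mean number are given. Runx2, of bone precursors, had 10 to 14 regions in limb and 5 to 7 in FB, Bmp2, a signal of cartilage growth, 8 to 12 and 4 to 5, and Sox6, a cartilage factor, 22 to 30 and 15 to 22, meeting at 22. Uncx had 3 to 7 in limb and 8 to 14 in FB. Meox2 had 12 to 15 regions in DFL and 6 to 9 in PFL, without overlap. Creb5 had 13 to 17 in DFL and 17 to 25 in PFL, Sox5, another cartilage factor, 21 to 30 and 20 to 23, and Trps1 13 to 18 and 10 to 14, all with overlap. Tcf7l2, of muscle connective tissue, had 14 to 17 in DFL, 10 to 15 in PFL and 11 to 15 in FB and separated none of the tissues.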

How the data were processed

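ATAC-seq libraries of 6 groups (2 genotypes, 3 tissues, 2 replicates each) and 1 earlier wt DFL library were used. The authors trimmed adapters with cutadapt, aligned read pairs with Bowtie on mm10 (wt) or on the mutant genome (542), removed low-quality, discordant, mitochondrial and duplicate (Picard) reads, converted them with bedtools and ran MACS2 library by library, without a control and with tags extended to 200 bp around the insertion. The deposited fold is a ratio of tags plus 1 to the local background plus 1. The −log10 p-value deposited with each summit compares it with that background, and the −log10 q-value deposited beside it is adjusted within the library. The deposited score, a whole-number form of the latter, was not used. Nothing is normalized between libraries.

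Entries with the same start and end were 1 region. Tag totals, the depth, were estimated from fold and p-value. Lists of the 50000 strongest regions per library (−log10 q, then fold) were joined by an overlap of 1 bp, since libraries differ in depth, and a region absent from a list can still be called at a lower rank. Coordinates of 542 on chromosome 2 beyond the insertion were moved back by 4218 bp, the shift measured against wt (4217 or 4218 in 6 comparisons), and 75.2 to 75.3 Mb was left out. Log2 fold of regions called in every library was quantile-normalized and fitted with limma 3.58.1 in R 4.3.3 (variance trend, Benjamini-Hochberg over all regions, threshold 0.05), with genotype as a covariate for DFL against PFL and tissue for 542 against wt. Where a fit leaves 1 library in a group, it is assumed to vary like the others. The fit was tested on simulated data. Of log2 changes of 0.5 it called 18.5% (DFL against PFL), 48% (limb against FB) and 66.5% (542 against wt). Of changes of 1 it called 72.5%, 91.5% and 93%, and at most 5.88% of its calls were false. Small differences, above all between DFL and PFL, can thus be missed. Presence and numbers of regions carry no p-value, and the share of all regions or coding genes is given instead. Annotation was GENCODE M21. Python 3.11.15, numpy 2.4.6, pandas 2.3.3 and matplotlib 3.10.9 were used.

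The genes and lists were chosen with earlier results of these data known. Named were, per gene, the strongest region called in at least 6 of 12 libraries and the strongest at a transcript start (within 250 bp), and up to 5 per comparison and direction. Others were named after their values were seen to complete counts. Replicates were separate pools, equal in fold at under 0.04% of shared regions. Depth limits which weak regions are called, and in DFL and PFL both 542 libraries were shallower than both wt libraries. Alternatives are listed with their effects at the end.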

Additional observations from a re-analysis of the deposited data

Results flagged for a closer look

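At 2 PFL-only regions the earlier wt DFL library, which is outside the comparisons, held a signal above all 4 DFL libraries of the groups. Its fold was 8.18 at Osr1 1, where the DFL libraries were at 3.66, 4.202 and 3.87 with 1 not calling it, and 6.35 at Tcf4 6, where they were at 3.07 to 3.98 with 1 not calling it. Over the genome 13.8% of PFL-only regions were among its 50000 strongest. With it included as a further wt DFL library, 1 region near the 10 genes was PFL-only (0.633%, against 2.17% of all regions). It is the deepest library (78.0 M tags), and the part of depth in these values was not tested. No difference of the genotype effect between tissues passed a threshold, and groups of 2 libraries are too small for a search for outlying samples.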

How the results depend on the processing

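Shares in brackets are those near the 10 genes, then those of all regions. With the 20000 strongest regions per library 2 were DFL-only (3.17%, 2.62%), 3 limb-only (4.41%, 3.71%) and 1 FB-only (1.47%, 7.40%). In PFL 3 were wt-only (5.26%, 3.65%) and 0 542-only (0%, 3.27%), and in DFL 0 were 542-only (0%, 3.19%). With this setting 0 genes had more regions in limb, against 5.62% of all coding genes. With all deposited regions 10 were DFL-only, 8 PFL-only and 11 FB-only, wt-only were 10 in DFL, 23 in PFL and 6 in FB, and 542-only 2 in PFL and 7 in FB. With a fold of at least 5, 542-only were 0 in DFL (0%, 2.59%) and 8 in PFL (7.84%, 2.82%). With a −log10 q of at least 10, 5 were PFL-only (3.21%, 1.99%). Then wt-only were 8 in DFL (6.30%, 7.38%), 12 in PFL (9.68%, 8.85%) and 3 in FB (3.23%, 4.30%), and 542-only 0 in DFL (0%, 1.66%) and 1 in PFL (0.81%, 1.33%). Windows of 500 bp gave 2 wt-only in FB. Within 50 kb 3 were DFL-only (2.83%, 3.27%) and 3 FB-only (2.56%, 8.77%). In FB 0 were wt-only (0%, 2.94%), and 542-only were 1 in DFL (1.15%, 3.42%) and 3 in PFL (3.49%, 3.49%). With chromosome 2 coordinates as deposited, 2 were wt-only and 2 542-only over all tissues, wt-only were 11 (DFL), 10 (PFL) and 5 (FB) within tissues, and 542-only 6, 10 and 6. With the earlier wt DFL library 3 were DFL-only, 1 PFL-only and 0 542-only in DFL.

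In the tests of fold, among the 50000 strongest in every library, 2 of 54 were higher in DFL and 1 in PFL, beside 902 and 648 of all 26235. In limb 3 of 32 were higher, beside 3050 of all 19307. Without normalization 4 of 88 were higher in PFL, beside 1895 of all 42933, and 19 of 49 in FB, beside 11098 of all 28265. A mean fold of at least 5 left 5 of 42 higher in limb, beside 4886 of all 25896. A distance of 50 kb left 5 of 30, beside 5243 of all 28265. With the limb libraries alone, chosen after seeing the data, 1 of 88 was higher in wt, beside 0.27% of all regions. The causes were not tested beyond the smaller number of regions in the stricter settings.

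Leaving out 1 library gave 5 to 7 DFL-only, 3 to 5 PFL-only (5 without 542 PFL replicate 1 or 2), 18 to 20 limb-only and 7 to 8 FB-only regions, and 0 of either genotype over all tissues. Within tissues, where leaving out 1 leaves 1 library of a genotype, wt-only were 8 to 13 (DFL), 9 to 14 (PFL) and 1 to 6 (FB). Over all regions the shares were 7.59% to 10.1%, 8.11% to 10.4% and 5.84% to 7.85%. For 542-only the numbers were 5 to 8, 6 to 11 and 3 to 5, against 6.18% to 10.8%, 6.39% to 10.9% and 5.13% to 7.53%. Of the tested regions 1 to 4 were then higher in DFL (2 without wt DFL replicate 1, wt PFL replicate 1 or 542 PFL replicate 1, and 1 without wt PFL replicate 2) and 3 to 8 in PFL (3 without wt DFL replicate 2 or either wt PFL replicate, 4 without wt DFL replicate 1 or 542 DFL replicate 2, 5 without either 542 PFL replicate). In limb 4 to 9 were higher (4 without wt FB replicate 1 or either 542 FB replicate, 5 without wt FB replicate 2) and in FB 6 to 10 (6 without wt FB replicate 2 or 542 FB replicate 2). Between genotypes and for their difference between tissues the number stayed 0. By regions per gene 0 to 1 genes separated DFL from PFL in each direction and 6 had more in limb.

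With replicate number as a block, 3 regions were higher in DFL and 7 in PFL, beside 2831 and 2397 of all 42933. In limb 8 were higher and in FB 10, beside 5163 and 5276 of all 28265, and 0 differed between genotypes. The adjusted p of Osr1 10 between DFL and PFL was then 0.0548, and 0.0523 with median centring. Deviations of libraries with the same number correlated at -0.035 to 0.016, so the samples share only a number. Presence and numbers of regions come from no test and were not fitted with the block.

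Regions near the limit of calling depend on depth, and most restricted regions could not be tested for fold.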
